A study of Mus musculus with 6 samples.

Results

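The replication-dependent histone genes were taken as every gene symbol in the count matrices that begins with Hist1h, Hist2h, Hist3h or Hist4h. There were 67 such genes among 28649 symbols, of which 6 encode linker histone H1, 18 H2A, 18 H2B, 12 H3 and 13 H4. They were measured by droplet single-cell RNA sequencing in 6 libraries labelled as 4T1, a murine breast carcinoma line that grows and spreads in mice. In both groups lentivirus was given 48 h before puromycin (2 µg/mL, 7 days), and droplets were made from suspensions that were more than 80% viable. The 3 shNC libraries carried a non-targeting hairpin, and the 3 libraries labelled shPgk1 carried a hairpin against Pgk1, which encodes the glycolytic enzyme phosphoglycerate kinase. The labels name only 4T1 cells and no host animal, and no source used here says how many hairpins or clones were used.

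Core histones H2A, H2B, H3 and H4 form the nucleosome around which DNA is wound, and H1 binds the DNA between nucleosomes. The genes studied here are transcribed mainly in S phase, when new chromatin needs histones, from clusters in which many near-identical copies lie side by side. Most of their mRNAs end in a conserved stem-loop, bound by the protein SLBP, in place of a poly(A) tail, although some members are known to make polyadenylated transcripts as well.

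In the mouse annotation GENCODE M21 (GRCm38), 54 members lay on chromosome 13 between 21715763 and 23934851, 10 on chromosome 3 between 96219865 and 96270132, 2 on chromosome 11 and 1 on chromosome 6. The stem-loop was searched for in the annotated transcripts as a 16-base run with its first GG, central TTTTCA and last CC fixed. The bases between were limited to C or T before the centre and to A or G after it. The stem-loop was found in 35 of the 67 members, in 3 forms, and forms outside these limits could not be found. The commonest form was present in 26 members, including the H1 gene Hist1h1c, the next in 7, including the H4 gene Hist1h4d, and the last in 2, Hist1h4b and Hist1h4j. The 3 forms are shown because they are what sets these mRNAs apart from other mRNAs; capitals mark the stem-loop, from 5′ to 3′, with 5 flanking bases on each side.
Hist1h1c: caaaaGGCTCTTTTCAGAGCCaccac
Hist1h4d: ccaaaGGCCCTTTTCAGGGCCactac
Hist1h4b: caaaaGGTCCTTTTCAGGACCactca

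A 250-base window before the transcription start was matched in RefSeq (GRCm38.p6) for 61 members. The CCAAT letters, searched on both strands as all motifs here, were in 82% of member windows and in 37.5% of the 27025 genes with a window. TATAAA was in 47.5% against 14.3%, the octamer ATTTGCAT in 23% against 1.81%, and AAACACA in 14.8% against 7.2%. The motifs were not spread evenly over the classes. AAACACA was found in 5 of 6 H1 windows, the octamer in 7 of 17 H2A and 7 of 16 H2B windows and in none of H1, H3 or H4, and CCAAT in 3 of 12 H4 windows but in all H1, H2A and H2B windows. The windows of 18 members overlapped that of another member, as where an H2A and an H2B gene are transcribed away from each other, so these counts are not independent. A match says only that the letters are present. Windows of 4 members that behaved differently below are printed with the motifs in capitals. They are Hist1h1b (GRCm38.p6, chr13:21780626-21780875, minus strand), Hist1h1c (chr13:23738557-23738806, plus strand), Hist1h2ae (chr13:23571221-23571395, minus strand, cut where the annotated gene Hist1h2bg begins) and Hist1h4i (chr13:22041363-22041612, minus strand).
Hist1h1b: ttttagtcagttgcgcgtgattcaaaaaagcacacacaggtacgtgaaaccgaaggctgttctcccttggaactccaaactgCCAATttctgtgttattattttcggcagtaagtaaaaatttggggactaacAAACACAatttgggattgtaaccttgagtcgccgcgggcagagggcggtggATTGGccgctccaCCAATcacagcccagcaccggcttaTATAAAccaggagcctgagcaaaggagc
Hist1h1c: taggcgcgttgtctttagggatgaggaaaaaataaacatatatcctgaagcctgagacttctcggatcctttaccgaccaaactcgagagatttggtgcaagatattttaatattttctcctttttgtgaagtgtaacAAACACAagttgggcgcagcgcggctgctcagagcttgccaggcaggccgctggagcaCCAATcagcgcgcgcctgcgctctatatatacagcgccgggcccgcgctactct
Hist1h2ae: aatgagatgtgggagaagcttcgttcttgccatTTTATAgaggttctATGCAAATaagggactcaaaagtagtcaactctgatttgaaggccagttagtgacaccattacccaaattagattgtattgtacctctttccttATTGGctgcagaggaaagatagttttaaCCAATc
Hist1h4i: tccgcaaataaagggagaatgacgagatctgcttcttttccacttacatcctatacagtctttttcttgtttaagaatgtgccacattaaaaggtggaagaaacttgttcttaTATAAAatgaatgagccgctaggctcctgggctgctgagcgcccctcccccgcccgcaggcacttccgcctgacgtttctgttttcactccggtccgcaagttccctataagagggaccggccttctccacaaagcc

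Member genes held 254965 of the 618648509 unique molecular identifiers (UMIs, each marking 1 captured mRNA molecule) in 41434 kept barcodes, a barcode being 1 droplet taken as 1 cell. Kept UMIs per library ranged from 76611204 to 124590825. Over all kept barcodes, which pool several lineages in unequal shares, the target was not lower: Pgk1 was at 351, 341 and 313 CPM (the gene's UMIs scaled to a fixed library total) in shNC libraries 1 to 3 and at 324, 324 and 349 CPM in libraries 1 to 3 labelled shPgk1. In tumour-marked barcodes, by the Epcam plus Krt8 mark described below, it was at 235, 220 and 187 CPM in shNC and 225, 283 and 298 CPM in shPgk1-labelled libraries, and the groups overlapped (log2 fold 0.47 ± 0.14, edgeR adjusted p = 0.0477). Directions below are therefore given for the library labels. Although the labels name only 4T1 cells, macrophage, T cell, fibroblast and endothelial markers were found in separate barcodes. Nothing in the labels says that the 3 numbered libraries of a group came from separate cultures or animals, so p-values measure only the spread between these libraries.

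A few members carried most of the signal. Hist1h2bc, an H2B gene, held 16.7% of member UMIs, the H1 genes Hist1h1c and Hist1h1e 13.7% and 11.1%, and the H2A gene Hist1h2ae 10.1%, so that these 4 held 51.5%. Above 1000 UMIs there were 41 members, and 7 were under 100. Per kilobase of annotated exon, over all kept barcodes, Hist1h2bc (59.5 ± 8.03 CPM per kb, SD over 6 libraries) and Hist1h2ae (59.3 ± 8.76) did not differ beyond their spread. Hist1h1c followed at 37 ± 6.69, the H3 gene Hist1h3c at 30.8 ± 3.96, Hist1h1e at 23.7 ± 2.19 and Hist1h4i at 17 ± 2.1 CPM per kb. Hist1h1c and Hist1h3c overlapped between libraries in this order.

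Copies of these genes are alike enough to blur single-gene counts. In 32 members at least 50% of the 50-base runs of the annotated transcript also occurred in another gene, 21 members overlapped an antisense gene and 7 overlapped another gene on the same strand. How the submitters treated reads with several matches, and whether strand was used, is not stated here, so values of such members are uncertain as single-gene values. Hist1h1b shared none of its 50-base runs, Hist1h1c 8.54%, Hist1h4i 28.9%, Hist1h2bc 30.1%, Hist1h1e 32%, Hist1h2ae 43.2% and Hist1h3c 47%.

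Barcodes were sorted into lineages by UMIs of a few marker genes: tumour by Epcam plus Krt8, macrophage by Csf1r plus Cd68, T by Cd3e, fibroblast by Col1a2 and endothelial by Cdh5. This gave 12972 tumour-marked, 7940 macrophage-marked, 1177 T-marked, 1301 fibroblast-marked and 172 endothelial-marked barcodes, while 5685 carried marks of several lineages and 12187 carried none. Markers not used for sorting were highest in the barcodes of their own lineage. The 7 other epithelial markers summed to 3530 to 3970 CPM in tumour-marked barcodes and to 223 to 386 CPM in macrophage-marked ones. Macrophage markers were still at 573 to 1440 CPM in tumour-marked barcodes, and the part of such mixed signal in the results was not tested.

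Summed over all members, the level was higher in T-marked and tumour-marked barcodes than in macrophage-marked and fibroblast-marked ones. Tumour-marked barcodes held 443, 500 and 609 CPM of member UMIs in shNC libraries 1 to 3 and 436, 457 and 482 CPM in libraries labelled shPgk1. T-marked barcodes held 589, 578 and 725 CPM in shNC and 735, 520 and 361 CPM in shPgk1-labelled libraries. The T-marked range therefore enclosed the tumour-marked range. Macrophage-marked barcodes held 252, 323 and 312 CPM in shNC and 265, 284 and 280 CPM in shPgk1-labelled libraries, below tumour-marked barcodes in every library. Fibroblast-marked barcodes lay between 235 and 350 CPM, also below tumour-marked ones in every library, and endothelial-marked ones, with 17 to 46 barcodes a library, between 187 and 462 CPM.

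**Figure D1:**
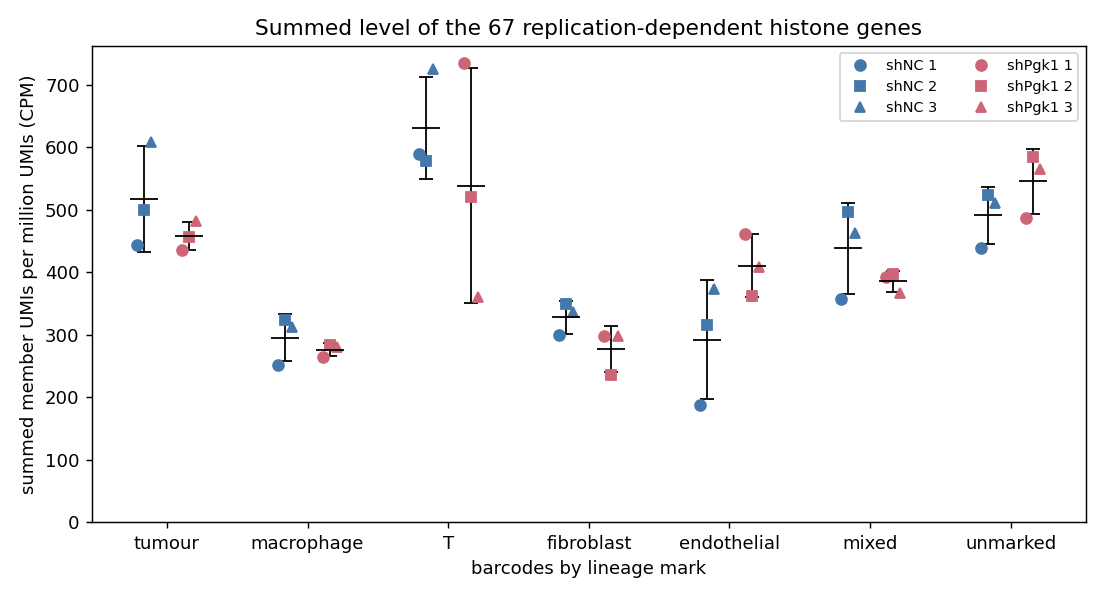
Summed CPM of the 67 members (vertical axis) in barcodes of each lineage mark, with several marks (mixed) or with none (unmarked); each point is 1 library, the horizontal tick is the group mean and the bar is 1 SD (n = 3). T-marked and tumour-marked barcodes sit above macrophage-marked and fibroblast-marked ones, and shNC and shPgk1 overlap in every class except fibroblast.

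Tests of single genes compared lineages within the same library, with edgeR's quasi-likelihood test on counts summed per library and Benjamini-Hochberg adjustment over all genes. In macrophage-marked against tumour-marked barcodes, 6 members were higher and 38 lower of 58 tested at an adjusted p under 0.05, where 37% and 37.5% of all genes were called in each direction. The 9 members not tested had too few counts. Among the 41 members above 1000 UMIs, 2 were higher and 29 lower. Largest falls were in H2A and H3 genes, with Hist1h2af at a log2 fold of -1.95 ± 0.13 (SE), Hist1h2ab at -1.84 and Hist1h3h at -1.75.

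The linker histone Hist1h1a went the other way. It was at 0.101 to 0.25 CPM in tumour-marked barcodes and at 1.55 to 2.58 CPM in macrophage-marked ones, with no overlap (log2 fold 3.89 ± 0.23, edgeR adjusted p = 2.14e-10). Hist1h1a was too sparse for a test within tumour-marked barcodes and entered this one through the macrophage-marked barcodes. The size of its fold is therefore not read. Hist1h4i, an H4 gene, was at 8.47 to 11.4 CPM in tumour-marked and 12.8 to 19.6 CPM in macrophage-marked barcodes (log2 fold 0.85 ± 0.12). The other named rises were the H3 genes Hist2h3c2 (1.20) and Hist2h3c1 (0.66) and the H2B gene Hist2h2be (1.08), all under 1.3 CPM. Hist1h1c showed no call, at 50 to 85.5 CPM in tumour-marked and 42.1 to 70.2 CPM in macrophage-marked barcodes (log2 fold 0.06 ± 0.08).

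In T-marked against tumour-marked barcodes, 23 members were higher and 7 lower of 57 tested, with 30.3% and 33.9% of all genes called. Of the 41 members above 1000 UMIs, 17 were higher and 6 lower. Hist1h1b, an H1 gene, was at 25.8 to 35.3 CPM in T-marked and 8.82 to 13.2 CPM in tumour-marked barcodes (log2 fold 1.34 ± 0.14). Hist3h2ba, an H2B gene on chromosome 11, was at 4.47 to 13.9 CPM in T-marked and 0.152 to 0.417 CPM in tumour-marked barcodes (log2 fold 4.78 ± 0.35). Hist1h1a was at 1.39 to 10.3 CPM in T-marked barcodes (log2 fold 4.71 ± 0.44), so that this H1 gene was lowest in tumour-marked barcodes among these 3 lineages. Both Hist3h2ba and Hist1h1a were too sparse for a test within tumour-marked barcodes, so the sizes of their folds are not read. Hist1h2bc fell by 1.75 ± 0.12 on the log2 scale, from 79.7 to 96.3 CPM in tumour-marked to 22.3 to 46.2 CPM in T-marked barcodes. Further falls were in the H2A genes Hist1h2ap (-1.59), Hist2h2ac (-0.78) and Hist3h2a (-0.47) and in Hist1h1c (-0.47). The fall of Hist2h2ac was lost at higher UMI minimums of the lineage marks, where it was at 0.073 ± 0.18 (edgeR adjusted p = 0.734).

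The order of T-marked and tumour-marked barcodes changed when barcodes with Mki67 or Top2a UMIs were left out. The share of barcodes with at least 3 UMIs of Mki67 plus Top2a was 10.8% to 24.1% in T-marked and 10.6% to 14.5% in tumour-marked barcodes, at median depths of 6640 to 9230 and 9200 to 14100 UMIs. In barcodes without any UMI of these 2 genes, the summed member level was 154 to 312 CPM in T-marked and 281 to 429 CPM in tumour-marked barcodes. Tested in those barcodes alone, 6 members were higher and 10 lower in T-marked barcodes. The share of all genes called there is not given here, so these counts are not read as a result about the members. Among the lower calls was Hist1h2ak at -1.52 ± 0.52 (edgeR adjusted p = 0.0105). It held only 7 UMIs in these T-marked barcodes over the 6 libraries, so the size of its fold is not read. It had been called higher over all barcodes of the lineages (0.46 ± 0.20, adjusted p = 0.048). Hist1h3c at -0.83 ± 0.31 (0.018) and Hist1h4i at -0.69 ± 0.29 (0.035) were lower too. Neither had been called over all barcodes, at 0.16 ± 0.20 and 0.04 ± 0.18. The calls of Hist1h1b, Hist1h2bj, Hist1h2bk and Hist1h2bp were lost. Hist1h1b was at -0.71 ± 0.45 (adjusted p = 0.167), and the H2B genes Hist1h2bj, Hist1h2bk and Hist1h2bp were at -0.03 ± 0.57 (0.968), -0.24 ± 0.68 (0.781) and -0.035 ± 0.69 (0.969). In these T-marked barcodes Hist1h1b held 13 UMIs, Hist1h2bj 10, and Hist1h2bk and Hist1h2bp 7 each, so these values rest on sparse counts.

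Fibroblast-marked barcodes had 5 members higher and 45 lower of 57 tested against tumour-marked ones, with 30% and 35% of all genes called. Hist1h2bc was an exception at 91.9 to 136 CPM against 79.7 to 96.3 CPM (log2 fold 0.30 ± 0.10, edgeR adjusted p = 0.0109), and the ranges overlapped. The other named rises were Hist1h1a (2.52), Hist2h3c2 (2.58), Hist2h3c1 (2.33) and Hist1h4i (0.55), and Hist1h1e fell by 1.96. As above, the size for Hist1h1a is not read. In endothelial-marked barcodes 0 members were higher and 19 lower of 57 tested, with 17.9% and 26.9% of all genes called. DESeq2 called 12 members, and 3 were called in Mki67 and Top2a negative barcodes alone. Shares of all genes called are not given for these alternatives. At this depth some members had no UMI in any endothelial library, and no fold is given for them.

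Member levels followed Mki67 plus Top2a, a proliferation antigen and the topoisomerase that untangles chromosomes, both highest from late S phase to mitosis. In tumour-marked barcodes the summed level was 281 to 429 CPM in barcodes with 0 UMIs of the pair, 334 to 569 with 1, 403 to 751 with 2, 644 to 1210 with 3 to 4, 751 to 1310 with 5 to 9, and 968 to 1430 with 10 or more. Macrophage-marked barcodes went from 195 to 261 CPM at 0 to 513 to 996 CPM at 10 or more, and T-marked ones from 154 to 312 CPM to 842 to 2000 CPM. The lowest and highest bins did not overlap in any of these lineages. Depth moved with the bins, from library medians of 7980 to 11200 UMIs to 17400 to 32400 UMIs in tumour-marked barcodes. CPM corrects for the total only, so each barcode was also thinned to 3000 UMIs.

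**Figure D2:**
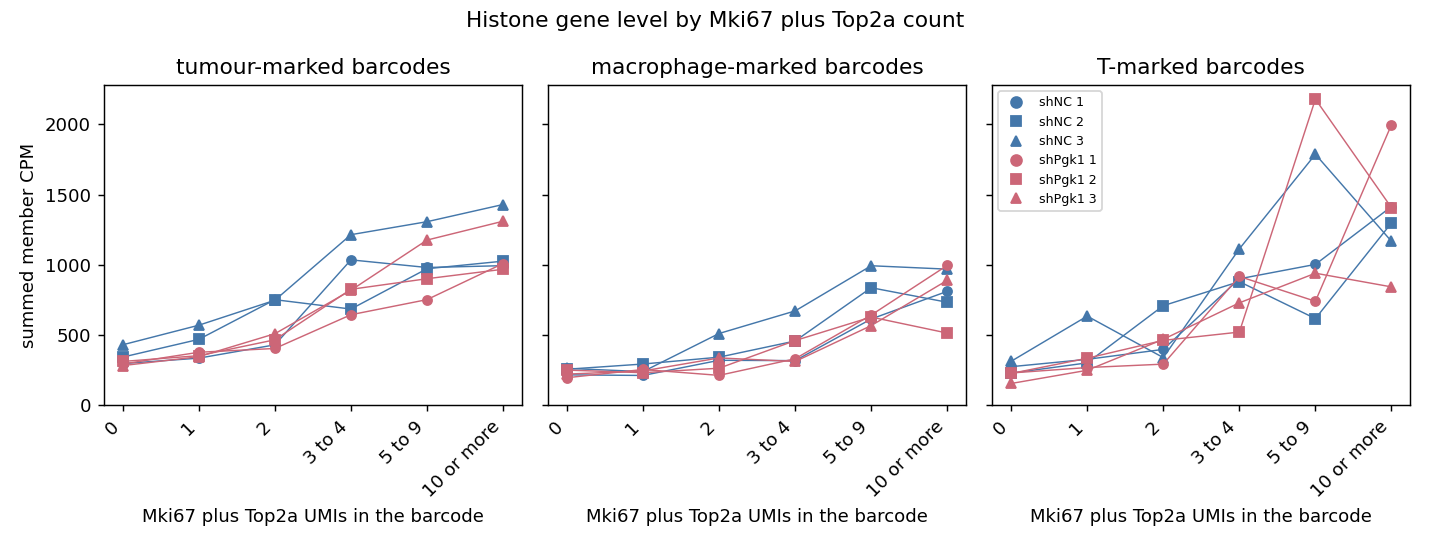
Summed member CPM (vertical axis) by the number of Mki67 plus Top2a UMIs in a barcode (horizontal axis), 1 line per library, for tumour-marked, macrophage-marked and T-marked barcodes. In each lineage the points of the highest bin lie above all points of the lowest bin, and T-marked bins, which hold few barcodes, scatter most.

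At 3000 UMIs per barcode, tumour-marked barcodes with a Mki67 or Top2a UMI carried a mean of 2.52 to 3.9 member UMIs and those without carried 1.08 to 1.6. In T-marked barcodes the means were 1.85 to 3.6 and 0.563 to 1.45, and in macrophage-marked ones 1.13 to 1.71 and 0.71 to 0.883. The 2 states did not overlap in any of these lineages. Thinning left out 185 shNC and 336 shPgk1-labelled tumour-marked barcodes shallower than 3000 UMIs. Within single libraries, the Spearman correlation between member UMIs and Mki67 plus Top2a UMIs over thinned barcodes was 0.17 to 0.25 in tumour-marked (1321 to 3160 barcodes), 0.29 to 0.41 in T-marked (129 to 219) and 0.07 to 0.12 in macrophage-marked barcodes (867 to 1911). With the DNA replication genes it was 0.04 to 0.10, 0.19 to 0.34 and 0.04 to 0.10. The counts are sparse and the barcodes of a library share its depth and preparation, so these are descriptions.

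Gene by gene, nearly every member tested was higher in barcodes with at least 3 Mki67 plus Top2a UMIs than in those with 0, and the difference was compared within libraries. A member sparse in the negative barcodes could pass the count filter through the high ones, which favours rises among the members tested. In tumour-marked barcodes 52 members were higher and 1 lower of 54 tested, where 15.4% of all genes were higher and 15.2% lower. Of the 41 members above 1000 UMIs, 39 were higher. Hist1h1b rose from 1.81, 2.38 and 4.3 CPM in shNC and 3.24, 2.92 and 3.11 CPM in shPgk1-labelled libraries to 39.8, 23.5 and 27 CPM and 28.8, 36 and 48.6 CPM. Its log2 fold was 3.50 ± 0.15 (edgeR adjusted p = 1.23e-10), and it was higher in 6 of 6 libraries. Hist1h3c rose from 5.53 to 11.1 CPM to 58 to 99.3 CPM (3.36 ± 0.08) and Hist1h2ae from 12.7 to 30.3 CPM to 134 to 261 CPM (2.96 ± 0.07). Hist1h3b (3.47), the H2B gene Hist1h2bn (3.42) and the H2A gene Hist1h2ah (3.35) were the other leading rises, and Hist1h1e rose by 2.19 ± 0.17.

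The 2 most abundant members did not rise. Hist1h1c was at 60.7, 69.4, 88.9, 54.7, 62.4 and 46 CPM in the Mki67 and Top2a negative barcodes of shNC libraries 1 to 3 and shPgk1-labelled libraries 1 to 3. It was at 71.3, 64.1, 71.1, 55, 64.8 and 58 CPM in the high barcodes, so the states overlapped (log2 fold -0.03 ± 0.07, edgeR adjusted p = 0.825). Hist1h2bc went from 81.9, 92.7, 104, 85.9, 108 and 99.8 CPM to 84, 49.4, 51.7, 47, 63.2 and 63.3 CPM. It was lower in 5 of 6 libraries, all but shNC library 1, and fell by 0.76 ± 0.11 on the log2 scale (adjusted p = 0.000648). Without shNC library 1 it fell by 0.89. Hist1h2bc has 1 annotated transcript of 1156 bases spread over chr13:23684199-23692908, and no stem-loop was found in it, whereas that of Hist1h1c runs 840 bases past its stem-loop.

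**Figure D3:**
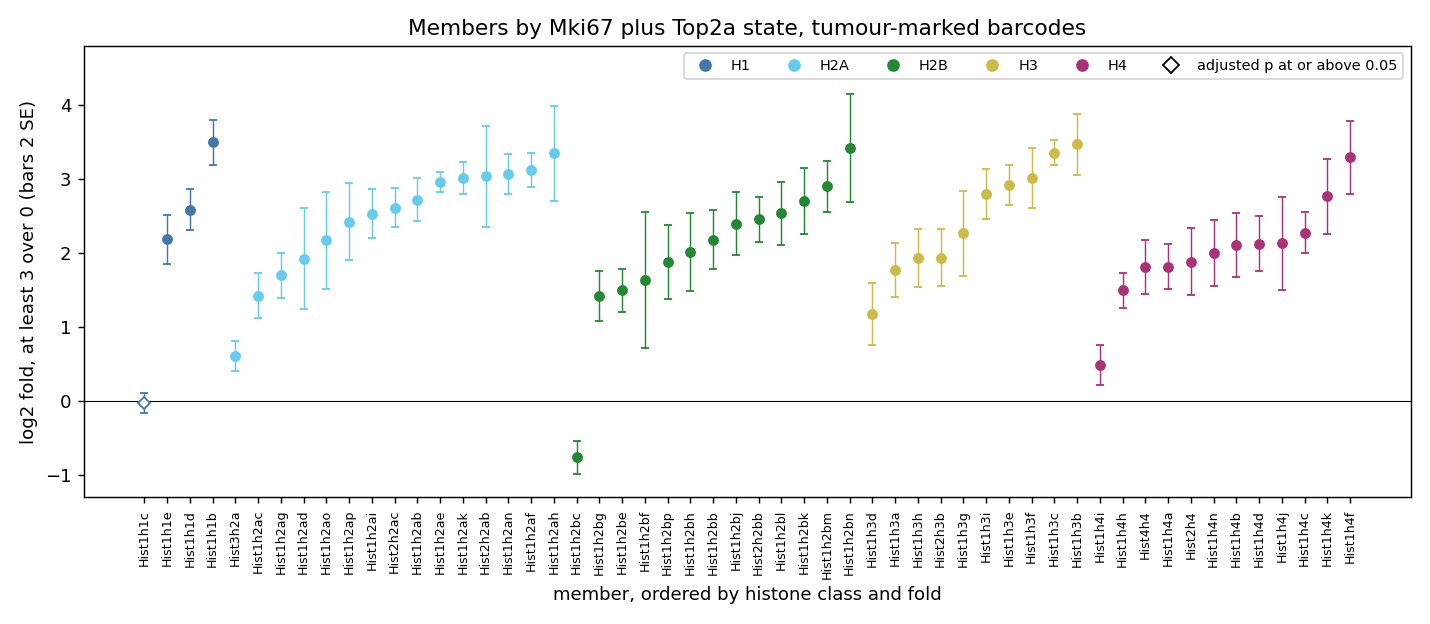
Log2 fold of each of the 54 tested members in tumour-marked barcodes with at least 3 against 0 Mki67 plus Top2a UMIs (vertical axis), ordered by histone class and fold, with bars of 2 SE; open diamonds did not pass an adjusted p of 0.05. Hist1h2bc lies below 0 at -0.76, Hist1h1c at -0.03, and the others lie above 0, up to 3.50 for Hist1h1b.

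Macrophage-marked barcodes gave 45 members higher and 1 lower of 50 tested, with 11.2% and 10.4% of all genes called. Hist1h2af (3.94 ± 0.29), Hist1h3b (3.93), the H2B genes Hist1h2bm (3.86) and Hist1h2bk (3.77), and Hist1h3c (3.81 ± 0.15) led, and the member that fell was again Hist1h2bc (-0.47 ± 0.11). Of the 41 members above 1000 UMIs, 37 were higher. The call of Hist1h2bc was lost at the lower minimum of 1 Mki67 plus Top2a UMI (edgeR adjusted p = 0.211) and after thinning (0.835). In T-marked barcodes all 40 tested members were higher, with 15.6% of all genes higher and 12.2% lower; 27 members had too few counts for a test and 5 libraries had the 20 barcodes needed in each state. Of the 41 members above 1000 UMIs, 37 were tested and 37 were higher. Some tested members were nearly absent from the Mki67 and Top2a negative T-marked barcodes of the 6 libraries, such as Hist1h4f (1 UMI) and Hist1h3b (3). These could pass the count filter only through the high barcodes, so the counts of rises are in part set by the filter. Hist1h1b led with a log2 fold of 5.39 ± 0.30, followed by Hist1h2ak (4.92), Hist1h2bj (4.33), Hist1h2ae (4.28) and Hist1h3c (4.14). In the same negative barcodes Hist1h1b held 13 UMIs, Hist1h2ak 7 and Hist1h2bj 10, so the sizes of their folds are not read. Hist1h2ae held 41 there and Hist1h3c 30.

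Hist1h2bc rose in T-marked barcodes, from 16.2, 15.4 and 29.7 CPM in shNC and 22.6 and 36.5 CPM in shPgk1-labelled libraries 1 and 2 to 52.3, 58.5, 46.3, 34.8 and 96.5 CPM (log2 fold 1.30 ± 0.20). The difference between the T and tumour effects was tested in an analysis added after the data were seen. It was 2.14 ± 0.27 on the log2 scale for Hist1h2bc (edgeR adjusted p = 2.3e-05), and 11 of 50 members tested differed in this way, all with the larger effect in T-marked barcodes, against 13.7% of all genes called in either direction. Between macrophage-marked and tumour-marked barcodes 11 of 59 members differed, against 9.35% of all genes. Hist1h1a is among those called in both comparisons, but it held only 21 UMIs in the Mki67 and Top2a negative and 7 in the high tumour-marked barcodes and was too sparse for a test there, so the size of its difference is not read. Others called between T and tumour were sparse too, such as Hist1h2ak and Hist1h2bp, with 7 UMIs each in the negative T-marked barcodes. The sizes of their differences are not read either.

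Tumour-marked barcodes were also split by the summed UMIs of 10 replication genes (such as those of the Mcm helicase) as well as Mki67 plus Top2a. The cycle phase of the barcodes in each class was not tested. Barcodes with neither mark numbered 4544, with the replication mark only 1111, with both 995, and with Mki67 plus Top2a only 318. Summed member levels were 288, 334 and 424 CPM in shNC and 307, 324 and 317 CPM in shPgk1-labelled libraries with neither mark. With the replication mark only they were 282, 292, 360, 249, 261 and 252 CPM, lower than with neither mark in each library. With both marks they were 913, 746, 1300, 780, 780 and 998 CPM, and with Mki67 plus Top2a only 1180, 867, 1140, 1180, 2030 and 2020 CPM. The last 2 classes therefore lay above the first 2 in every library. Median depths were 6580 to 7374, 15570 to 23668, 17840 to 30248 and 8550 to 10850 UMIs in this order. The classes are set by raw UMI limits, which a barcode's depth affects, and the part of depth in these levels was not tested.

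In barcodes with the replication mark only against those with neither, 4 members were higher and 4 lower of 35 tested, where 21.3% and 21.1% of all genes were called; the 32 others had too few counts. Higher were the H2A genes Hist1h2ag (1.12 ± 0.26) and Hist1h2an (0.95 ± 0.37), Hist1h3c (0.83 ± 0.18) and Hist1h1b (0.80 ± 0.26). Lower were Hist1h2ac, an H2A gene (-0.98 ± 0.28), Hist1h2bc (-0.65 ± 0.08), the H4 gene Hist1h4h (-0.57 ± 0.22) and Hist1h1c (-0.31 ± 0.08). DESeq2 called 5 of these, as did fits without library 1 or without library 2 labelled shPgk1, and without Hist1h1b, Hist1h2an and Hist1h4h in each. With both marks, 50 members were higher and 2 lower of 53 tested, with 23.5% and 19.1% of all genes called. Hist1h1b (3.91 ± 0.18), Hist1h3c (3.85 ± 0.12), Hist1h3b (3.83), Hist1h2an (3.77) and Hist1h2bn (3.74) led, and Hist1h2bc (-1.27 ± 0.08) and Hist1h1c (-0.32 ± 0.08) fell. Neither was called with Mki67 plus Top2a only, where Hist1h2bc was at -0.32 ± 0.42 (edgeR adjusted p = 0.705) and Hist1h1c at 0.77 ± 0.31 (0.189). With Mki67 plus Top2a only, 51 were higher and 0 lower of 53 tested, with 7.63% and 7.87% of all genes called, led, among members with at least 50 UMIs, by the H4 gene Hist1h4f (4.34 ± 0.60). The last 2 fits tested 53 members, against 35 with the replication mark only. Members missing from the latter passed the count filter through the classes with Mki67 plus Top2a, so the counts of rises are in part set by the filter. Hist1h4f was among them, with 36 UMIs with Mki67 plus Top2a only, and the size of its fold is not read.

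**Figure D4:**
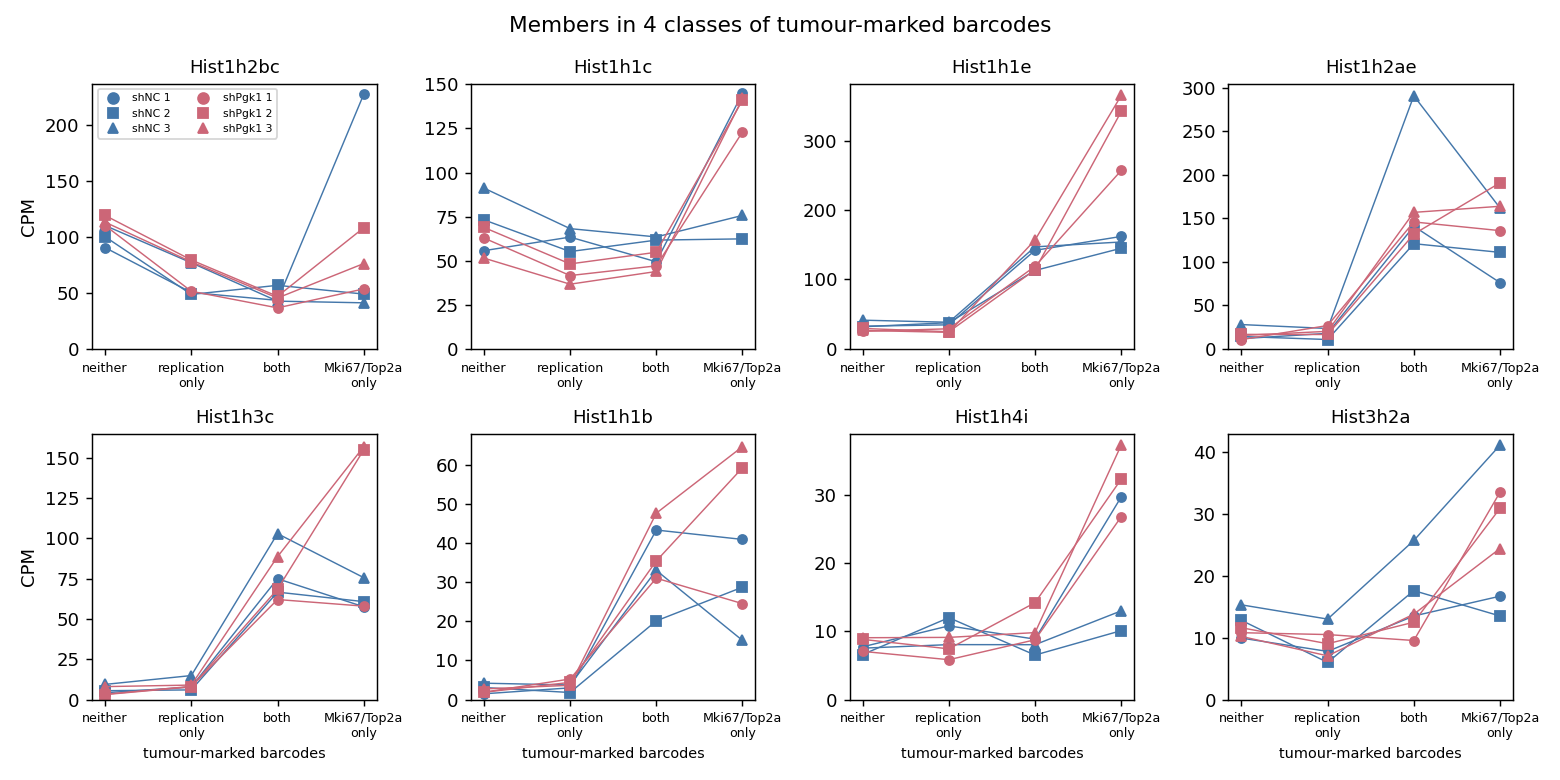
CPM of 8 members (vertical axes) in tumour-marked barcodes with neither mark, the replication mark only, both, or Mki67 plus Top2a only; each line is 1 library. Hist1h2bc falls from 90.3 to 119 CPM with neither mark to 36.6 to 56.7 CPM with both, while Hist1h3c goes from 3.08 to 9.41 CPM to 62.1 to 103 CPM. With Mki67 plus Top2a only, Hist1h2bc is at 41.1 to 227 CPM.

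Genes that make, finish or handle histones were followed as lists. Of 17 genes for histone transcription and mRNA processing, 11 were higher and 0 lower of 16 tested in the Mki67 and Top2a high tumour-marked barcodes (median log2 0.39, against -0.003 over all genes), among them Slbp (0.75 ± 0.08), the transcription coactivator Npat (0.60 ± 0.10) and the U7 particle subunit Lsm11 (0.43 ± 0.12). With the replication mark only, Slbp was higher (0.39 ± 0.09) and Npat lower (-0.40 ± 0.16). The share of all genes higher in that comparison was 15.4%, and 21.3% with the replication mark only. Of 13 histone chaperones 8 were higher by Mki67 plus Top2a, with Asf1b at 2.65 ± 0.10, and it was already higher with the replication mark only (1.27 ± 0.22). Among 11 replacement histones, which are not members here, 6 were higher and 1 lower of 9 tested. H2afz rose by 1.07 ± 0.07 and H2afx by 1.74 ± 0.06. The 10 genes that marked barcodes are no result in that split.

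No member was called between the groups in any lineage tested. Over all kept barcodes, 0 of 62 members tested differed between libraries labelled shPgk1 and shNC, where 16.7% of all genes were called, and 4 members had an unadjusted p under 0.05. In tumour-marked barcodes 0 of 57 were called, where 17% of all genes were called, with 2 under an unadjusted 0.05. The counts were 0 of 55 in macrophage-marked (0.316% of all genes called), 0 of 36 in T-marked (0.298%) and 0 of 11 in fibroblast-marked barcodes (0.312%), with 3, 2 and 3 members under an unadjusted 0.05. DESeq2 also called 0 members in each of these. Of the 41 members above 1000 UMIs, the interval of 2 SE lay within a log2 fold of -1 to 1 for 41 over all barcodes and for 40 in tumour-marked barcodes, but for 19 of 34 tested in T-marked and 7 of 11 tested in fibroblast-marked ones.

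Values of Hist1h2bc, Hist1h2ae, Hist1h3c and Hist1h1b in tumour-marked barcodes overlapped between groups. In tumour-marked barcodes Hist1h2bc was at 80.8, 79.7 and 96.3 CPM in shNC and 81.4, 93.2 and 90.4 CPM in shPgk1-labelled libraries (log2 fold 0.19 ± 0.12). Hist1h2ae was at 40, 57.8 and 75.1 against 53.5, 50.4 and 51 CPM (-0.01 ± 0.19), and Hist1h3c at 21.2, 25 and 31.1 against 20.1, 23.3 and 28.7 CPM (0.05 ± 0.17). Hist1h1b came nearest to a call, at 9.88, 8.82 and 9.08 against 9.46, 11 and 13.2 CPM (0.42 ± 0.15, edgeR adjusted p = 0.0752). It passed with no filter on low counts (0.48, 0.016) and without library 1 labelled shPgk1 (0.53, 0.0309). Hist1h1e passed in the opposite direction in the Mki67 and Top2a negative barcodes alone (-0.52 ± 0.12, adjusted p = 0.0356). Hist1h1c was at 56, 66.3 and 70.2 against 42.1, 60.9 and 49.4 CPM in macrophage-marked barcodes (-0.39 ± 0.16) and at 51.6, 63.9 and 76.4 against 40.6, 37.6 and 50.2 CPM in fibroblast-marked ones (-0.60 ± 0.17). The groups overlapped in macrophage-marked barcodes and did not in fibroblast-marked ones, and neither difference passed (edgeR adjusted p = 0.325 and 0.199). It passed in both without the filter on low counts (adjusted p = 0.0332 and 0.0218).

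Summed levels did not separate the groups beyond their spread. The log2 difference in summed CPM, shPgk1-labelled minus shNC, was -0.02 over all barcodes (exact permutation test, two-sided p = 1) and -0.17 in tumour-marked barcodes (518 ± 84.5 CPM in shNC and 458 ± 23 CPM, SD, n = 3, exact p = 0.3). It was -0.09 in macrophage-marked (exact p = 0.5), -0.28 in T-marked (exact p = 0.5) and 0.54 in endothelial-marked barcodes (exact p = 0.2). In fibroblast-marked barcodes the groups did not overlap, at 299, 350 and 336 against 298, 235 and 298 CPM (-0.25, exact p = 0.1, adjusted 0.6 over the 6 tests). The smallest p that 3 against 3 libraries allow is 0.1. Scaling by TMM, which sets the bulk of genes level, moved the tumour-marked difference by 0.20 and turned it to 0.036. A sum over barcodes cannot tell fewer expressing cells from less RNA per cell.

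Genes of DNA replication did move between the groups in tumour-marked barcodes. Of 17 on the list, 14 were higher and 0 lower in libraries labelled shPgk1, where 9.17% of all genes were higher (median log2 0.55, against -0.035 over all genes), among them the ribonucleotide reductase subunit Rrm2 (0.87 ± 0.10), Mcm5 (0.81 ± 0.10) and the sliding clamp Pcna (0.57 ± 0.09). Of 18 mitosis genes 5 were higher against the same 9.17%, while Mki67 (0.05 ± 0.13) and Top2a (0.01 ± 0.11) were not called. The median over the 41 histone genes above 1000 UMIs was -0.065. Whether the histone and replication lists differ was not tested. Replacement histones gave 4 higher of 9 tested, with H2afz at 0.68 ± 0.14, and the processing list 2 of 16, a share near that of all genes, with Slbp at 0.17 ± 0.10 and not called. Tumour-marked barcodes were deeper in libraries labelled shPgk1, with medians of 11700 to 14100 against 9200 to 10700 UMIs, and made up 34.6% to 45.2% against 19.1% to 23.5% of barcodes; the part of either in these results was not tested. Summed macrophage markers in these barcodes were at 1210, 1160 and 1440 CPM in shNC and 1100, 573 and 693 CPM in shPgk1-labelled libraries, and neutrophil markers in T-marked barcodes at 521, 4110 and 2120 against 19.6, 103 and 208 CPM. Neither pair of groups overlapped, and the part of these markers in the group comparisons was not tested. After thinning to 3000 UMIs, 16.6%, 19.2% and 18.5% of shNC and 18.7%, 15.7% and 15.4% of shPgk1-labelled tumour-marked barcodes had a Mki67 or Top2a UMI.

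**Figure D5:**
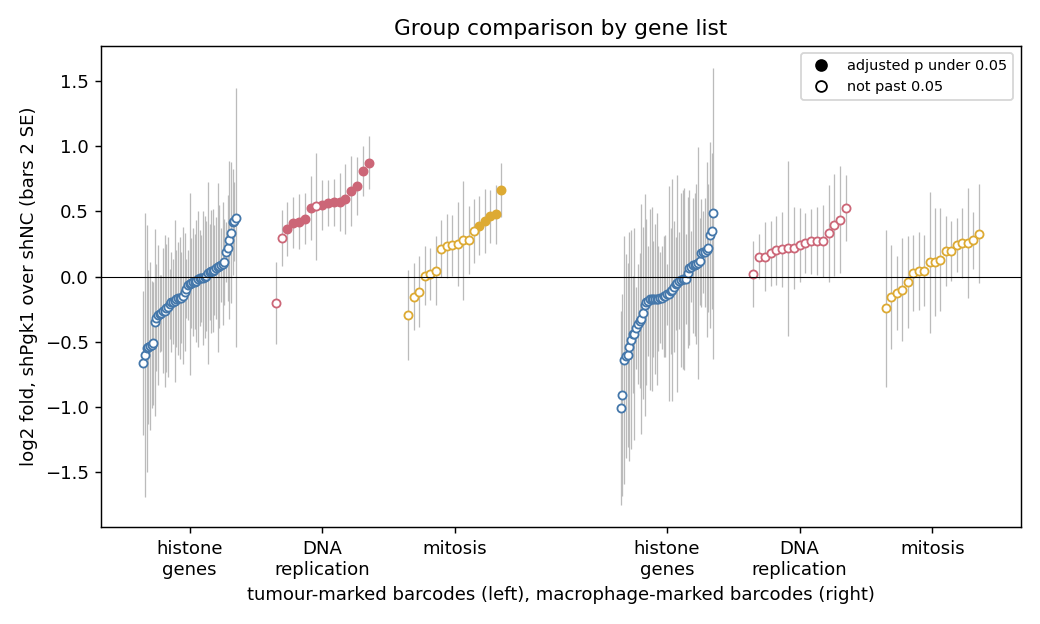
Log2 fold of libraries labelled shPgk1 over shNC (vertical axis, bars of 2 SE) for the tested histone genes, the DNA replication list and the mitosis list, in tumour-marked barcodes on the left and macrophage-marked barcodes on the right; filled points passed an adjusted p of 0.05. In tumour-marked barcodes 14 of 17 replication genes and 5 of 18 mitosis genes are filled and 0 of 57 histone genes are; in macrophage-marked barcodes none is filled.

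The group effect was also compared between lineages. A term for its difference between macrophage-marked and tumour-marked barcodes was called for 0 of 58 members, 0 of which had an unadjusted p under 0.05, where 2.06% of all genes were called. DESeq2 called 0. Without library 1 labelled shPgk1, Hist1h3c passed (-0.62 ± 0.19, edgeR adjusted p = 0.048).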

How the data were processed

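The authors deposited 1 matrix of raw UMI counts per library with its gene symbols and barcodes; PISA 0.12 made it, per the file headers. Seurat 4 and the human build GRCh38 (hg38) are named in the submitters' processing notes, although the symbols are mouse symbols, so for the counts themselves no genome build or annotation is given in the sources used. Barcode names are running numbers, and 11389 of 26570 names occur in more than 1 library, but 0 count profiles were repeated. Libraries differed beyond sampling noise in every pair (chi-square per degree of freedom 24.1 to 273 over genes with at least 20 counts).

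Of 42902 deposited barcodes, the shallowest at 1001 UMIs, 643 failed a minimum of 500 UMIs or 300 genes or a maximum of 20% mitochondrial UMIs, and 825 had a Scrublet doublet score above 0.25 (scanpy 1.11.5). Lineage marks needed 5 UMIs (tumour, fibroblast), 3 (macrophage) or 2 (T, endothelial); replication marks needed at least 5 UMIs of the list, and at most 1 counted as none. Counts were summed per library and class and compared by edgeR's robust quasi-likelihood test (edgeR 4.0.16, TMM, filterByExpr, R 4.3.3; Benjamini-Hochberg adjustment), by group, or with library as a term for contrasts within libraries; SE is the log2 fold divided by the square root of F. Classes needed 20 barcodes per library, so the endothelial group comparison has no gene test. DESeq2 1.42.0 was an alternative. In simulated counts, 100 genes were changed 2-fold and 100 others 4-fold, all drawn from genes with a mean of at least 20 counts. The tumour-marked group test, on 14892 genes, recovered 71% of the 2-fold changes. The Mki67 plus Top2a test, on 13584 genes, recovered 97% of them. Of all calls, those of 4-fold changes included, 8.15% and 4.37% were false. Libraries differed only in total in the simulation, and recovery in sparser genes was not tested.

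Members are the symbols of the 4 histone clusters, and named ones are the 12 with most UMIs and the 5 largest called rises and falls with at least 50 UMIs per comparison; others named were chosen after their values were seen. The members and lists were chosen with earlier results of these data known. Sequences are from RefSeq (GRCm38.p6) and GENCODE M21.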

Additional observations from a re-analysis of the deposited data

Results flagged for a closer look

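Effects of Mki67 plus Top2a that differed between lineages by edgeR's test of the difference itself are listed here; the test was added after the data were seen. In T-marked minus tumour-marked barcodes the log2 difference was 2.18 for Hist1h1b and 0.81 for Hist1h1c among H1 genes. It was 1.75 for Hist1h2ac, 1.44 for Hist1h2ae and 2.16 for Hist1h2ak among H2A genes. H2B genes gave 2.14 for Hist1h2bc, 1.34 for Hist1h2bg, 2.20 for Hist1h2bj and 2.13 for Hist1h2bp, and the H3 gene Hist1h3c gave 0.92. In the Mki67 and Top2a negative T-marked barcodes, Hist1h2ak and Hist1h2bp held 7 UMIs each over the 6 libraries. Hist1h2bj held 10 there, Hist1h2ac 12, Hist1h1b 13 and Hist1h2bg 18, so the sizes for these genes are not read. In macrophage-marked minus tumour-marked barcodes the log2 difference was 1.18 for Hist1h2ag, with the larger effect in macrophage-marked barcodes. The effect was smaller there for Hist1h1d (-1.05), Hist1h3e (-1.31), Hist1h4c (-1.16), Hist1h4h (-0.84), Hist1h4n (-0.88), Hist2h2ac (-1.46), Hist3h2a (-1.09) and Hist4h4 (-1.37). Fitted differences of 4.54 (T) and 3.93 (macrophage) for Hist1h1a and of -2.55 (macrophage) for Hist2h3c1 rest on sparse counts and are not read as sizes. Hist1h1a held 7 UMIs in all in the high tumour-marked barcodes, and it entered the test through the other lineage. Hist2h3c1 held 5 UMIs in the high macrophage-marked barcodes, and it was too sparse for the Mki67 plus Top2a test within either lineage.

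Barcodes that entered no lineage comparison held 42.5% of member UMIs. Those with several marks held 32.5% at 357 to 496 CPM and median depths of 27200 to 34000 UMIs, and those with no mark held 9.96% at 439 to 585 CPM and 2840 to 3200 UMIs.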

How the results depend on the processing

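Of 225 recomputed counts and summed levels, 201 stayed within 1.5 times or kept their sign. The group counts of 0 became 1 without a filter on low counts in tumour-marked (Hist1h1b), macrophage-marked and fibroblast-marked barcodes (Hist1h1c in both), and in Mki67 and Top2a negative tumour-marked barcodes (Hist1h1e). Leaving out 1 library gave 0 to 1 over all barcodes, 0 to 1 in tumour-marked barcodes and 0 to 1 for the difference between macrophage-marked and tumour-marked barcodes, the 1 always without library 1 labelled shPgk1. Counts against tumour-marked barcodes moved in Mki67 and Top2a negative barcodes to 27 (macrophage), 16 (T), 21 (fibroblast) and 3 (endothelial), at lower lineage minimums to 15 (T) and 32 (fibroblast), and with DESeq2 to 12 (endothelial). After thinning to 3000 UMIs, fewer members could be tested and 8 of 20 (macrophage) and 5 of 7 (T) were called by Mki67 plus Top2a. The count with the replication mark only was 5 with DESeq2 and 5 to 10 with 1 library left out. Shares of all genes called are not given for these recomputed counts.

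Summed levels over all barcodes turned to 0.075 with TMM scaling and ranged from -0.134 to 0.061 with 1 library left out; in tumour-marked barcodes TMM gave 0.036. The TMM shift was 0.20 in tumour-marked and at most 0.13 in size elsewhere. Of 2551 single-gene values, 2408 kept their call, 105 lost it, 26 gained one and 12 turned. In Mki67 and Top2a negative barcodes Hist1h1d turned to 0.41 (macrophage against tumour), and T against tumour turned for Hist1h3c (-0.83), Hist1h4i (-0.69), Hist1h1b (-0.71), Hist1h2ak (-1.52), Hist1h2bp (-0.035), Hist1h2bj (-0.03) and Hist1h2bk (-0.24). Hist1h2ak, Hist1h2bp and Hist1h2bk held 7 UMIs each in the negative T-marked barcodes, so their values there rest on sparse counts. Also for T against tumour, Hist1h2ak turned at lower minimums (-0.83), and Hist1h2ae (0.18), Hist1h4d (0.34) and Hist2h2ac (0.073) at higher ones. Except as stated, the cause was not tested.

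With the replicate number as a block, 0 members were called in each group comparison, and all genes called went from 3250 to 2525 over all barcodes, 2569 to 1133 in tumour-marked, 46 to 27 in macrophage-marked, 29 to 65 in T-marked and 33 to 87 in fibroblast-marked barcodes. Same-numbered libraries deviated together with correlations of 0.29, 0.11 and -0.13, so the numbers were not taken as pairs. The number of barcodes limits precision, with 17 to 46 a library in endothelial-marked and 158 to 235 in T-marked barcodes.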

Other observations

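Members were grouped by how far the annotated transcript runs past the stem-loop. The 14 members that run at least 300 bases past it held 38.1% of member UMIs, the 3 from 100 to under 300 bases 11%, the 18 under 100 bases 9.03%, and the 32 in whose annotated transcripts none was found 41.9%. By Mki67 plus Top2a in tumour-marked barcodes, the median log2 fold was 1.91 over 12 tested members of the first kind, 2.11 over 15 under 100 bases and 2.7 over 25 with none found, and the ranges overlapped, from -0.027 to 2.58, 1.5 to 3.47 and -0.76 to 3.5. The primer used for mRNA capture is not stated here.

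At equal depth of 3000 UMIs, 9.11%, 9.83% and 9.74% of shNC macrophage-marked barcodes and 13.1%, 13.1% and 12.7% in libraries labelled shPgk1 had a Mki67 or Top2a UMI (two-sided exact permutation test, p = 0.1, the smallest possible). Summed epithelial markers were at 223 to 318 CPM and 312 to 386 CPM in these barcodes, and their part in this difference was not tested. Mean member UMIs in the same thinned barcodes overlapped, at 0.771, 0.914 and 0.963 against 0.798, 0.897 and 0.796.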
